A study of Mus musculus with 8 samples.

Results

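The insulin-like growth factor (IGF) binding proteins, encoded by *Igfbp1* to *Igfbp7*, were followed in liver RNA-seq of male C57BL/6 mice, 4 labelled FXRKO (here *FxrKO*) and 4 labelled BCL6LKOFXRKO (here *Bcl6LKOFxrKO*). The members were the 7 rows of the deposited count table that carry these symbols, out of 24940 genes. Every mouse was homozygous for the *Fxr* deletion, which removes this bile acid receptor from the whole body, and every mouse carried floxed *Bcl6*. The *Bcl6LKOFxrKO* mice carried Albumin-Cre in addition, which deletes the transcriptional repressor *Bcl6* in hepatocytes. *Bcl6* in the other cells of these livers was not measured. Each library came from 1 numbered mouse (livers 1 to 4 *FxrKO*, livers 5 to 8 *Bcl6LKOFxrKO*). The labels give neither age nor feeding state, and no liver with intact *Fxr* was analysed here. Each value thus compares hepatocyte *Bcl6* loss with its absence on an *Fxr*-null background. The study reports cholestatic liver damage, with higher serum bilirubin and collagen staining, in *Bcl6LKOFxrKO* against *FxrKO* males. *Bcl6* loss and this damage cannot be told apart in these values.

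IGF binding proteins are secreted proteins that hold IGF1 and IGF2 in the circulation and in tissues, lengthen their half-life and limit their access to the IGF1 receptor. IGFBP1 to IGFBP6 bind IGFs with high affinity, whereas IGFBP7 binds them weakly and is found in vessel walls and extracellular matrix. The liver supplies much of the circulating IGF1 together with the acid-labile subunit (*Igfals*), which joins IGF and IGFBP3 or IGFBP5 in a large complex. *Igfbp1* is a classic gene of the fasting liver, induced by the forkhead factor FOXO1 and repressed by insulin. The study's methods state that mice were fed ad libitum or briefly fasted without saying which applies to these 8, so the feeding state behind the fasting and insulin genes below is not known.

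The libraries held between 7586241 and 11839503 counts on genes. CPM below are counts scaled to a common library size with TMM factors, and edgeR's quasi-likelihood test was run on the 12340 genes that its expression filter kept. A gene was called at a Benjamini-Hochberg adjusted p under 0.05 over all tested genes. The 50 most counted genes took 31.2% to 32.6% of the counts in *FxrKO* livers and 41.7% to 45.1% in *Bcl6LKOFxrKO* livers. Scaling by total counts alone instead of TMM moved the median log2 fold change of all genes by -0.16, and every fold change below is relative to TMM scaling. *Bcl6*, the targeted gene, lay between 21.2 and 65.2 CPM in *FxrKO* livers and between 4.61 and 11.9 CPM in *Bcl6LKOFxrKO* livers (log2 fold change -2.72 ± 0.40 SE, adjusted p = 0.00123, edgeR), with no overlap. *Nr1h4*, the gene of FXR, was still counted at 56.7 to 62.6 CPM in *FxrKO* livers and at 39.4 to 48.1 CPM in *Bcl6LKOFxrKO* livers (log2 fold change -0.46, adjusted p = 0.00497, edgeR), again with no overlap.

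All 7 members had a higher mean CPM in *Bcl6LKOFxrKO* than in *FxrKO* livers, and 6 passed the expression filter. Of these 6, 4 were called higher (*Igfbp2*, *Igfbp3*, *Igfbp4* and *Igfbp7*), *Igfbp1* and *Igfbp5* were not called, and none was called lower (edgeR; 0 at an unadjusted p under 0.05, and 0 by DESeq2 and by limma voom). *Igfbp6* was below the filter. Among all 12340 tested genes, 16.2% were called higher and 13.5% were called lower. The 4 called members were also those whose livers did not overlap between the genotypes, against 31.3% of all tested genes in either direction. The median log2 fold change was 0.70 over the 6 tested members and 0.01 over all tested genes. Bulk liver RNA does not show which cells carry a transcript, and more cells of a type cannot be told apart from more RNA per cell.

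**Figure D1:**
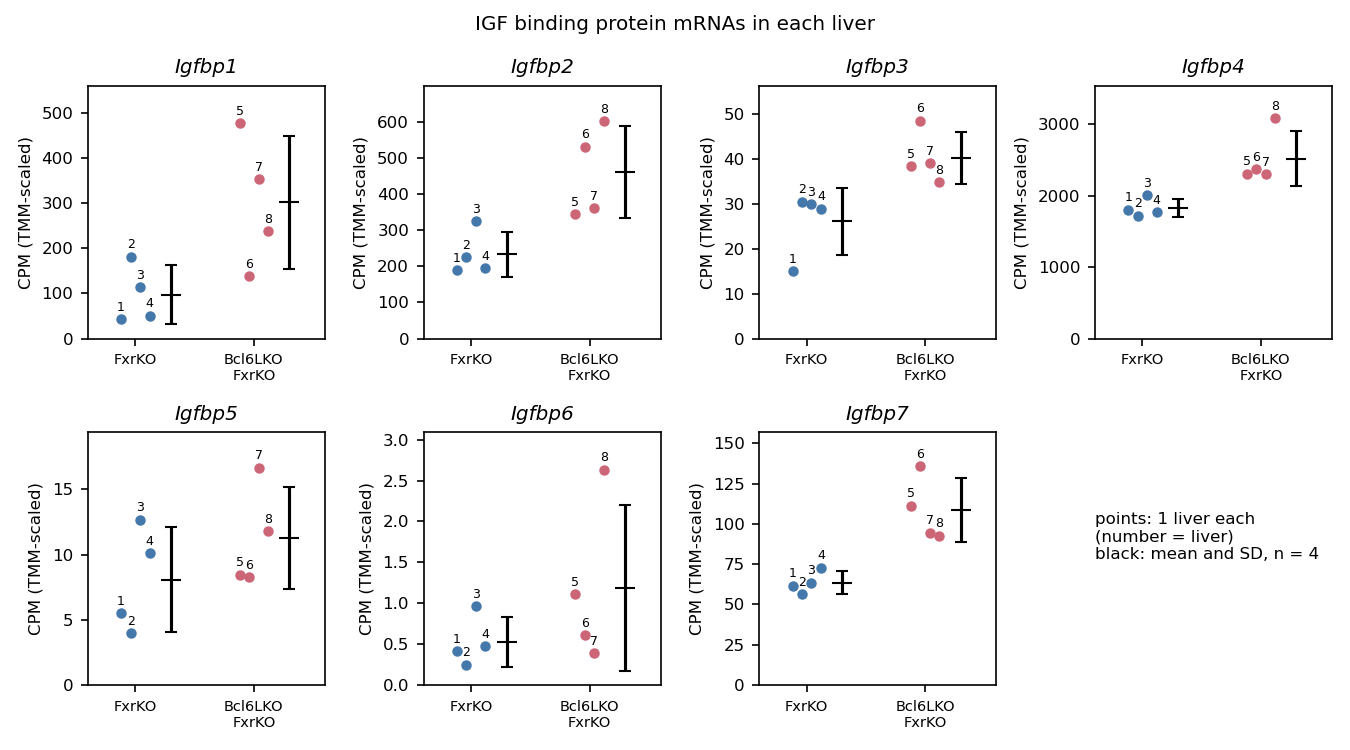
CPM of each IGF binding protein gene (y axes, each from 0) in the 4 *FxrKO* livers (blue, 1 to 4) and the 4 *Bcl6LKOFxrKO* livers (red, 5 to 8), with the mean and SD beside the points. *Igfbp2*, *Igfbp3*, *Igfbp4* and *Igfbp7* show no overlap between genotypes, while *Igfbp1* liver 6 (138 CPM) lies below *Igfbp1* liver 2 (182 CPM).

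*Igfbp7*, the low-affinity member of vessels and matrix, had the smallest adjusted p of the family. Its level was 61.7, 56.4, 63.4 and 72.9 CPM in *FxrKO* livers 1 to 4 and 111, 136, 94.6 and 92.6 CPM in *Bcl6LKOFxrKO* livers 5 to 8. The lowest *Bcl6LKOFxrKO* liver was thus above the highest *FxrKO* liver. The mean rose from 63.6 ± 6.87 CPM (SD, n = 4) to 109 ± 20.0 CPM (SD, n = 4), a log2 fold change of 0.77 ± 0.14 SE (adjusted p = 0.00112, edgeR), or 1.71-fold. The exact two-sided permutation p over the 70 orderings of the livers was 0.0286, the smallest this design allows. *Igfbp7* (NM_008048) lies on mm10 chromosome 5 from 77349240 to 77408045, minus strand, and shares 89 bases at its 3′ end with *Polr2b* on the other strand. *Polr2b* gave a log2 fold change of -0.58 (adjusted p = 0.00295, edgeR), in the other direction to *Igfbp7*.

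*Igfbp2*, another member that hepatocytes make and fasting raises, was at 189, 225, 324 and 196 CPM in the *FxrKO* livers and at 344, 531, 362 and 603 CPM in the *Bcl6LKOFxrKO* livers. *FxrKO* liver 3 came close to *Bcl6LKOFxrKO* liver 5, and the genotypes did not overlap. Its mean rose from 234 ± 62.5 CPM (SD, n = 4) to 460 ± 127 CPM (SD, n = 4), with a log2 fold change of 0.98 ± 0.22 SE (adjusted p = 0.0053, edgeR; exact permutation p = 0.0286). *Igfbp2* (NM_008342) lies on chromosome 1 from 72824480 to 72852471, plus strand. *Igfbp2* and *Igfbp7* kept their calls in all 15 alternative analyses of each, with adjusted p between 0.000169 and 0.0251 for *Igfbp2* and between 2.31e-05 and 0.00629 for *Igfbp7*.

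*Igfbp4*, whose product sequesters IGFs until it is cleaved by the protease PAPP-A, was the most abundant member in every liver. It was at 1805, 1719, 2008 and 1764 CPM in *FxrKO* livers and at 2306, 2374, 2302 and 3086 CPM in *Bcl6LKOFxrKO* livers. *Bcl6LKOFxrKO* liver 8 stood above the other 3 of its genotype, which lay within a narrow range. The log2 fold change was 0.46 ± 0.13 SE (adjusted p = 0.0189, edgeR; exact permutation p = 0.0286), the smallest of the 4 called members, with means of 1824 ± 128 and 2517 ± 381 CPM (SD, n = 4 each). The call was lost with total counts alone (log2 fold change 0.30, adjusted p = 0.0892), without *FxrKO* liver 2 (adjusted p = 0.0624) and without *FxrKO* liver 4 (adjusted p = 0.0524). *Igfbp4* (NM_010517) lies on chromosome 11 from 99041244 to 99052655, plus strand.

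*Igfbp3*, the main carrier in the circulating IGF complex, was at 14.99, 30.5, 29.98 and 29.0 CPM in *FxrKO* livers and at 38.4, 48.5, 39.1 and 34.8 CPM in *Bcl6LKOFxrKO* livers. *FxrKO* liver 1 stood below every other liver, and the other 3 *FxrKO* livers were still below all 4 *Bcl6LKOFxrKO* livers. The mean rose from 26.1 ± 7.44 to 40.2 ± 5.88 CPM (SD, n = 4 each), a log2 fold change of 0.62 ± 0.20 SE (adjusted p = 0.0334, edgeR; exact permutation p = 0.0286). This call was the least steady of the 4. It was lost with total counts alone (log2 fold change 0.46, adjusted p = 0.0842) and without any one of *Bcl6LKOFxrKO* livers 5, 6, 7 and 8, at adjusted p of 0.0572, 0.0885, 0.0604 and 0.0559. *Igfbp3* (NM_008343) lies on chromosome 11 from 7206091 to 7213923, minus strand, with its 3′ end 3545 bases from that of *Igfbp1*.

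*Igfbp1* (NM_008341, chromosome 11 from 7197787 to 7202546, plus strand) had the largest fold change and the widest spread among the tested members. Its level was 43.2, 182, 115 and 50.6 CPM in *FxrKO* livers and 479, 138, 354 and 239 CPM in *Bcl6LKOFxrKO* livers. The highest *FxrKO* liver exceeded the lowest *Bcl6LKOFxrKO* liver, and livers of one genotype differed by 4.21-fold (*FxrKO*) and 3.46-fold (*Bcl6LKOFxrKO*) from lowest to highest. The log2 fold change was 1.63 with a standard error of 0.58, and it was not called by edgeR (adjusted p = 0.0719; exact permutation p = 0.0571). The means were 97.6 ± 64.7 and 302 ± 147 CPM (SD, n = 4 each). DESeq2, the tool of the study's methods, called it at an adjusted p of 0.0303 with a log2 fold change of 1.61. It was also called by edgeR without *FxrKO* liver 2 (log2 fold change 2.12, adjusted p = 0.0261) or without *Bcl6LKOFxrKO* liver 6 (1.86, adjusted p = 0.0489), the pair of livers by which the genotypes overlap. The within-genotype SD of *Igfbp1* was 0.88 on the log2 CPM scale, higher than that of 99.1% of the tested genes. For comparison, the same SD was 0.62 for *Igfbp5*, 0.38 for *Igfbp2*, 0.38 for *Igfbp3*, 0.21 for *Igfbp7* and 0.16 for *Igfbp4*.

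The order of the livers differed between members. Among *Bcl6LKOFxrKO* livers, *Igfbp1* was highest in liver 5 and lowest in liver 6, whereas *Igfbp2* was lowest in liver 5 and its level in liver 6 was second only to liver 8. *Igfbp7* and *Igfbp3* were both highest in liver 6. Among *FxrKO* livers, *Igfbp1* was highest in liver 2 and *Igfbp2* and *Igfbp4* in liver 3. With 4 livers of a genotype these orders were not tested.

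*Igfbp5*, the other member that can join the acid-labile subunit, was at 5.52, 3.999, 12.7 and 10.1 CPM in *FxrKO* livers and at 8.46, 8.25, 16.7 and 11.8 CPM in *Bcl6LKOFxrKO* livers. The genotypes overlapped widely. The log2 fold change was 0.48 with a standard error of 0.35 (adjusted p = 0.336, edgeR; exact permutation p = 0.286), and an interval of 1 standard error around it holds the value of *Igfbp3* (0.62). *Igfbp5* was called in none of its 15 alternative analyses. *Igfbp5* (NM_010518) lies on chromosome 1 from 72858065 to 72874865, minus strand, with its 3′ end 5594 bases from that of *Igfbp2*. The neighbouring pair *Igfbp2* and *Igfbp5* thus held 1 called and 1 uncalled gene, as did the pair *Igfbp3* and *Igfbp1*.

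*Igfbp6*, which prefers IGF2 over IGF1, was at the limit of detection. It had 4, 2, 9 and 5 counts in *FxrKO* livers and 11, 5, 4 and 29 counts in *Bcl6LKOFxrKO* livers, where a floor of 3 counts corresponds to 0.253 to 0.395 CPM at raw totals and covers counting error only. Liver 8 held most of the *Bcl6LKOFxrKO* counts, and the other 3 livers overlapped the *FxrKO* livers. The difference of mean log2 CPM was 0.75 (exact permutation p = 0.257), and a difference was not detectable at this depth. *Igfbp6* (NM_008344) lies on chromosome 15 from 102144186 to 102149512, plus strand.

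**Figure D2:**
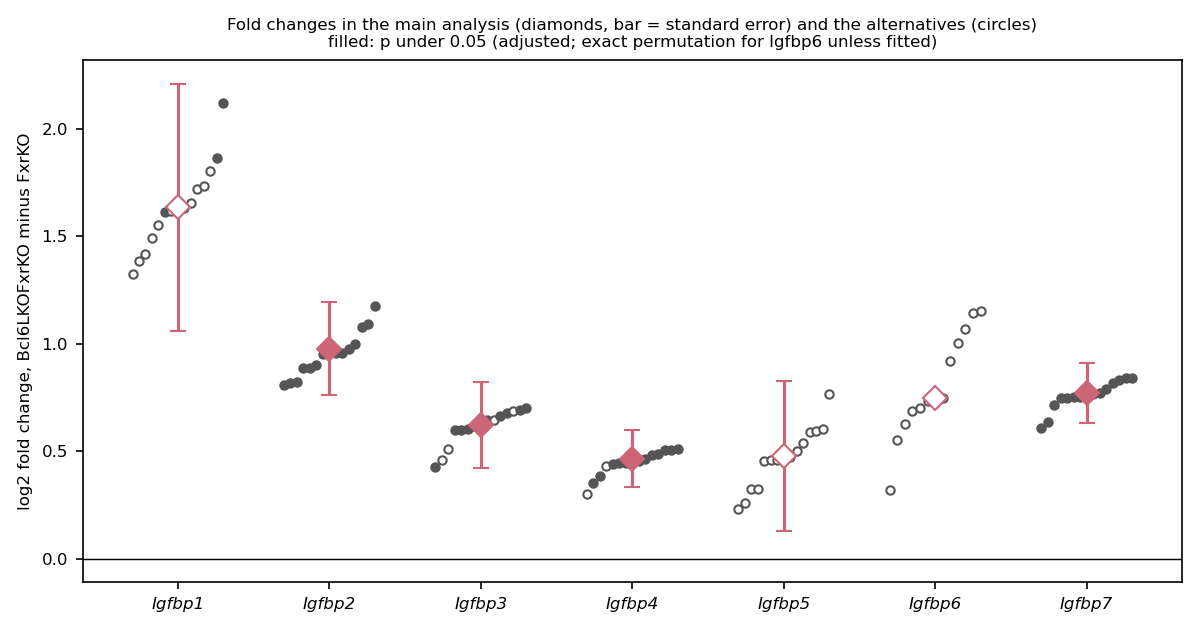
Log2 fold change of each member, *Bcl6LKOFxrKO* minus *FxrKO* (y axis), in the main edgeR analysis (diamonds, bars are standard errors) and in the alternative analyses (circles), filled where p was under 0.05. All values lie above 0, *Igfbp2* and *Igfbp7* are filled throughout, *Igfbp1* is filled in 3 alternatives, and *Igfbp5* and *Igfbp6* in none. The *Igfbp6* diamond and circles are differences of mean log2 CPM with an exact permutation p, except the circles of DESeq2 and of no filter.

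The promoter sequences are shown for *Igfbp1*, because its known insulin and FOXO1 response maps to short motifs near its start, and for *Igfbp4*, *Igfbp2* and *Igfbp7*, the most abundant member and the most steadily called members. They are the 250 bases before the RefSeq start on the GRCm38.p6 assembly (the mm10 build), written 5′ to 3′ along each gene's strand. Capitals mark matches, on either strand, to 6 short motifs: both parts of the insulin response element, a forkhead motif, a palindrome that STAT factors and BCL6 bind, a stricter form of it, and the TATA box. The upstream part of the insulin response element was searched as CAAAACA. Its downstream part was searched under the letters CAAAATA, which appear in the *Igfbp1* window in their opposite-strand form. The forkhead motif was searched as GTAAACA. The palindrome was searched as TTCNNNGAA, where N is any base, and its stricter form as TTCCTNGAA. The TATA box was searched as TATAAA. Every match to the stricter form is also a match to the palindrome.
Igfbp1, chr11:7197537-7197786, plus strand: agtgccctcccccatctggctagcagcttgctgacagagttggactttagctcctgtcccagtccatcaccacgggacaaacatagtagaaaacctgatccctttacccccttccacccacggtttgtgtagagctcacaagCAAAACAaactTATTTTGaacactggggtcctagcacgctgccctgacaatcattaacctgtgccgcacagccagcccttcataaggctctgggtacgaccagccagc
Igfbp4, chr11:99040994-99041243, plus strand: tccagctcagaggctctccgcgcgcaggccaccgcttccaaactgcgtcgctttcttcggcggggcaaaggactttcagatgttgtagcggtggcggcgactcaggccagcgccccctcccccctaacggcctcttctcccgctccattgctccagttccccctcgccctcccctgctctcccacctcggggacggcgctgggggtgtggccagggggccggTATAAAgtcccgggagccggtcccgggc
Igfbp2, chr1:72824230-72824479, plus strand: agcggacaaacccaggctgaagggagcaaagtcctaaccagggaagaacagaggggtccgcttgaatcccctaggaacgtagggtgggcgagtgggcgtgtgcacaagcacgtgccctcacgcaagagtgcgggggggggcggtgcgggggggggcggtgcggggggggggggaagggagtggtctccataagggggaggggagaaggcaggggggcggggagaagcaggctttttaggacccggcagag
Igfbp7, chr5:77408046-77408295, minus strand: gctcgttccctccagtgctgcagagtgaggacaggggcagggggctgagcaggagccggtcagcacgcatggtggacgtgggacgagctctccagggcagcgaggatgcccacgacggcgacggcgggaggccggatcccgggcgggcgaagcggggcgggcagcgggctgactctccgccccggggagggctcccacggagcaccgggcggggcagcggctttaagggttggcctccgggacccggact

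The *Igfbp1* window held both parts of the insulin response element, the upstream part from 108 to 102 bases before the start and the downstream part from 97 to 91 bases before it, on opposite strands. Of 32851 RefSeq promoter windows of 250 bases, 5.56% held the upstream part and 3.95% the downstream part on either strand. No other member's window held either part. The *Igfbp4* window held TATAAA along the gene's strand from 28 to 23 bases before the start. The *Igfbp6* window held only the opposite-strand form, TTTATA, from 148 to 143 bases before the start. Of all windows, 12.4% held TATAAA on either strand. The forkhead motif, the palindrome and its stricter form, found in 3.17%, 7.02% and 1.31% of all windows, were found in none of the 7 members' windows. A match here is a match of letters only, and these short windows leave out enhancers, introns and promoter bases farther upstream. The windows of *Igfbp7*, *Igfbp3*, *Igfbp4* and *Igfbp2* were richer in G and C (74%, 73.2%, 69.2% and 67.2%) than those of *Igfbp5*, *Igfbp1* and *Igfbp6* (58.8%, 53.2% and 49.6%). The G and C content was not compared with that of all windows, and a link to the calls was not tested.

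To compare members with each other, CPM were divided by the transcript length given in the deposited table, in kilobases. *Igfbp4* was at 874 ± 61.1 CPM per kilobase in *FxrKO* livers and 1205 ± 182 in *Bcl6LKOFxrKO* livers (SD, n = 4 each). The next level was *Igfbp2*, at 177 ± 47.3 and 348 ± 96.3 CPM per kilobase. *Igfbp1* followed at 64.5 ± 42.8 and 200 ± 97.0, and *Igfbp7* at 57.1 ± 6.17 and 97.6 ± 18.0 CPM per kilobase. *Igfbp3* was at 10.7 ± 3.06 and 16.5 ± 2.41, *Igfbp5* at 1.38 ± 0.69 and 1.93 ± 0.67, and *Igfbp6* at 0.41 ± 0.24 and 0.92 ± 0.79 CPM per kilobase. The order of the means was the same in both genotypes. In *FxrKO* livers the neighbours *Igfbp1* and *Igfbp7*, and *Igfbp5* and *Igfbp6*, overlapped between livers. In *Bcl6LKOFxrKO* livers these pairs overlapped too, and so did *Igfbp2* and *Igfbp1*, since *Igfbp1* exceeded *Igfbp2* in liver 5.

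The summed level of the 7 members was 1099, 1178, 1355 and 1106 CPM per kilobase in *FxrKO* livers and 1799, 1774, 1714 and 2193 in *Bcl6LKOFxrKO* livers, a ratio of means of 1.58. *Igfbp4* made up 69.9% to 78.7% of this sum in *FxrKO* livers and 61.4% to 67.4% in *Bcl6LKOFxrKO* livers, with no overlap. The share of *Igfbp1* ranged from 2.6% to 10.2% and from 5.14% to 17.6%, and that of *Igfbp2* from 13.0% to 18.1% and from 14.5% to 22.7%, both with overlap. *Igfbp7* took 4.2% to 5.92% and 3.79% to 6.88%. Shares add up to the whole in each liver, and the share of *Igfbp4* was lower although its level was higher. The shares were not tested.

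**Figure D3:**
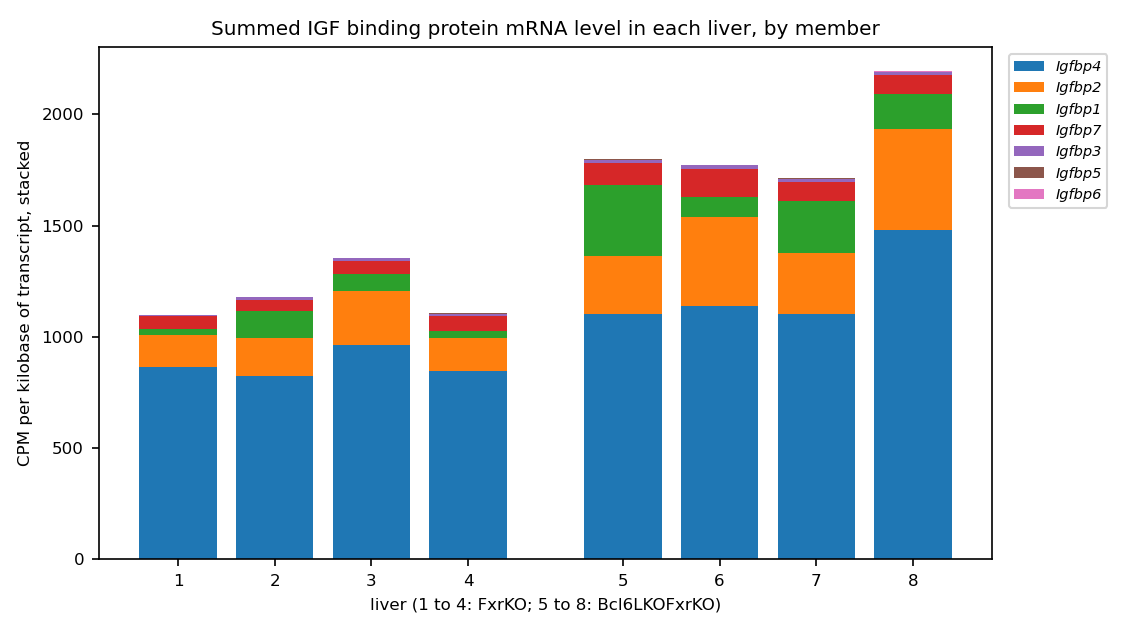
Stacked CPM per kilobase of transcript (y axis, from 0) of the 7 members in each liver (x axis; 1 to 4 *FxrKO*, 5 to 8 *Bcl6LKOFxrKO*). The bars of *Bcl6LKOFxrKO* livers, from 1714 to 2193, are all taller than those of *FxrKO* livers, from 1099 to 1355; among the *Igfbp4*, *Igfbp2*, *Igfbp1* and *Igfbp7* segments, that of *Igfbp1* varies most in proportion between livers of one genotype.

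The ligands and receptors that the binding proteins serve did not move as one group. Of 6 tested genes of ligands, receptors and the ternary complex, 3 were called higher, 1 lower and 2 were not called. With a minimum of 10 counts in every liver, which leaves out low genes, 1 was called higher. With DESeq2, and without any one of *FxrKO* livers 1 to 4 or *Bcl6LKOFxrKO* liver 5, 4 were called higher. *Igf1*, the main liver ligand, was at 268, 286, 409 and 263 CPM in *FxrKO* livers and at 276, 321, 233 and 163 CPM in *Bcl6LKOFxrKO* livers, with overlap and a log2 fold change of -0.30 ± 0.20 SE (adjusted p = 0.283, edgeR). *Igfals*, the acid-labile subunit, had a log2 fold change of 0.21 ± 0.17 SE (adjusted p = 0.373) and overlapped as well. *Igf2*, the fetal ligand that adult mouse liver largely silences, was at 0.416, 0.125, 0.537 and 0.284 CPM in *FxrKO* livers and at 5.74, 8.74, 7.40 and 2.81 CPM in *Bcl6LKOFxrKO* livers (adjusted p = 2.48e-05, edgeR). These *FxrKO* values are 1 to 5 counts, so the fold is imprecise, and *Igf2* stayed far below *Igf1* in CPM. *Igf1r*, the signalling receptor, was higher by 1.25 on the log2 scale (adjusted p = 0.00265), with 0.937 to 1.75 CPM in *FxrKO* livers and 3.18 to 3.88 CPM in *Bcl6LKOFxrKO* livers. *Igf2r*, which clears IGF2, rose by 0.74 on the log2 scale (adjusted p = 0.00042), and *Insr*, the insulin receptor, fell by 0.57 on the log2 scale (adjusted p = 0.00511). *Insrr*, an orphan relative of the insulin receptor named here after its values were seen, had 0 counts in all *FxrKO* livers. It was at 0.806, 1.82, 6.43 and 8.63 CPM in *Bcl6LKOFxrKO* livers 5 to 8. Their mean of 4.42 CPM was at least 13.7-fold above a floor of 3 counts per library (0.323 CPM). Liver 5 alone, with 8 counts, was much nearer to this floor. *Insrr* did not pass the expression filter.

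Proteases that free IGFs by cleaving binding proteins, and their inhibitors, were partly below detection. Of 16 listed genes 7 were tested, of which 4 were called higher and 1 lower. *Pappa*, the protease of IGFBP4, and *Stc2*, its stanniocalcin inhibitor, did not exceed 0.243 and 0.849 CPM in any liver and were not tested. *F2* (prothrombin) was higher by 0.83 on the log2 scale (adjusted p = 0.000168), *Mmp2*, a matrix metalloprotease, by 1.23 (adjusted p = 0.00164) and *Ctsd* (cathepsin D) by 0.83 (adjusted p = 0.00315). *Adam9*, a membrane protease, was lower by edgeR with a log2 fold change of -0.46 (adjusted p = 0.0285), a call lost without any one of the *FxrKO* livers 1 to 4 (adjusted p between 0.0522 and 0.066). Of 6 tested cell surface partners of the binding proteins, such as the IGFBP3 partners *Lrp1* and *Tmem219*, only *Itgb1*, a subunit of the integrins that IGFBP1 and IGFBP2 can bind, was called, with a log2 fold change of -0.37 (adjusted p = 0.0225). The *Itgb1* call was lost without *FxrKO* liver 2, *FxrKO* liver 4 or *Bcl6LKOFxrKO* liver 5 (adjusted p = 0.0538, 0.0723 and 0.0527).

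Other genes whose products share the IGF binding protein N-terminal domain gave 3 higher and 0 lower calls by edgeR among 9 tested. *Wisp2* (*Ccn5*), a matricellular protein, was higher by 3.05 on the log2 scale (adjusted p = 0.000182), with 0.416 to 0.625 CPM in *FxrKO* livers and 2.73 to 8.25 CPM in *Bcl6LKOFxrKO* livers. *Esm1* (endocan), a proteoglycan of endothelial cells, rose by 2.20 on the log2 scale (adjusted p = 0.00931), with 0.107 to 1.37 CPM in *FxrKO* livers and 1.63 to 4.98 CPM in *Bcl6LKOFxrKO* livers. The *FxrKO* values are 4 to 6 counts for *Wisp2* and 1 to 11 counts for *Esm1*, so both folds are imprecise. A minimum of 10 counts in every liver leaves both out, and 2 genes of the list were then called higher. *Htra1*, a secreted protease that carries this domain, rose by 0.91 on the log2 scale (adjusted p = 0.0186), a call lost without *FxrKO* liver 1 or 2 (adjusted p = 0.0526 and 0.0534).

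Growth hormone, which drives *Igf1*, *Igfals* and *Igfbp3* in the liver, was read through its receptor and feedback genes. Of 8 tested genes 3 were called higher and 0 lower. *Ghr*, the growth hormone receptor, lay between 373 and 458 CPM in *FxrKO* livers and between 1571 and 2350.1 CPM in *Bcl6LKOFxrKO* livers (log2 fold change 2.27 ± 0.15 SE, adjusted p = 2.1e-07, edgeR). *Prlr*, the prolactin receptor, was higher by 3.79 on the log2 scale (adjusted p = 4.88e-09). *Socs2*, a feedback inhibitor of the receptor, was higher by 1.67 on the log2 scale (adjusted p = 0.0318), and leaving out 1 liver ended this call in 4 cases, with adjusted p between 0.0586 and 0.0709. The *Socs2* call was also lost with no filter (adjusted p = 0.074, edgeR). The feedback genes *Cish* (log2 fold change 1.07, adjusted p = 0.137, edgeR) and *Socs3* (-0.28, adjusted p = 0.755, edgeR) were not called. *Jak2*, *Stat5a* and *Stat5b* were not called either.

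Genes of insulin and FOXO1 signalling, listed because FOXO1 induces *Igfbp1* and insulin represses it, went in both directions: of 12 tested, 2 were called higher and 4 lower. *Pck1*, the gluconeogenic gene that FOXO1 also induces, was at 1420.3, 2968, 2704 and 3362 CPM in *FxrKO* livers and at 735, 603, 1281 and 810 CPM in *Bcl6LKOFxrKO* livers. Its log2 fold change was -1.61 ± 0.29 SE (adjusted p = 0.00215), in the opposite direction to that fitted for *Igfbp1*. *Foxo1* itself gave a log2 fold change of -0.73 (adjusted p = 0.0156) and *Klf15*, a fasting-induced regulator of amino acid catabolism, -0.90 (adjusted p = 0.000358). The *Foxo1* call was lost without *Bcl6LKOFxrKO* liver 8 (adjusted p = 0.0614). *Pdk4*, a fasting-induced kinase that spares glucose, rose by 2.25 on the log2 scale (adjusted p = 0.00523). *Irs2*, an insulin receptor substrate that FOXO1 induces, gave a log2 fold change of 1.35 (adjusted p = 0.038, edgeR), which was lost under 7 alternatives, among them total counts alone and the omission of *FxrKO* liver 1, 3 or 4 or *Bcl6LKOFxrKO* liver 5 or 7.

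Among genes of the integrated stress response, whose factor ATF4 can raise *Igfbp1*, 3 of 9 were called higher and 0 lower. *Atf4* was at 88.0 to 117 CPM in *FxrKO* livers and 104 to 135 CPM in *Bcl6LKOFxrKO* livers (log2 fold change 0.14, adjusted p = 0.431). *Fgf21*, a stress and fasting hormone of the liver, was higher by 3.01 on the log2 scale (adjusted p = 0.00192) at no more than 3.63 CPM, *Atf3*, a stress-induced transcription factor, by 1.87 (adjusted p = 0.0274) and *Ddit3* (CHOP), a factor of the endoplasmic reticulum stress response, by 0.83 (adjusted p = 0.0451). The *Atf3* call was lost under 6 alternatives and the *Ddit3* call under 7. *Chac1*, *Asns* and *Trib3*, not called, fitted lower (log2 fold change -0.66, -0.37 and -0.24). *Atf4*, *Ppp1r15a* and *Sesn2*, also not called, fitted higher (0.14, 0.23 and 0.27). With no filter, with a minimum of 10 counts in every liver, and without *FxrKO* liver 2, 3 or 4 or *Bcl6LKOFxrKO* liver 8, 1 gene of the list was called higher instead of 3. In this list, the growth hormone list and the N-terminal domain list, 0 genes were lower at an unadjusted p under 0.05 in edgeR, and 0 were called lower by DESeq2 or limma voom. Over all 7 lists together, 17 of 56 tested genes were called higher and 7 lower, and the median of their log2 fold changes was 0.22. Among all tested genes, 16.2% were called higher and 13.5% lower, and the median was 0.01. These shares are the background for each list count above and for the marker counts below.

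**Figure D4:**
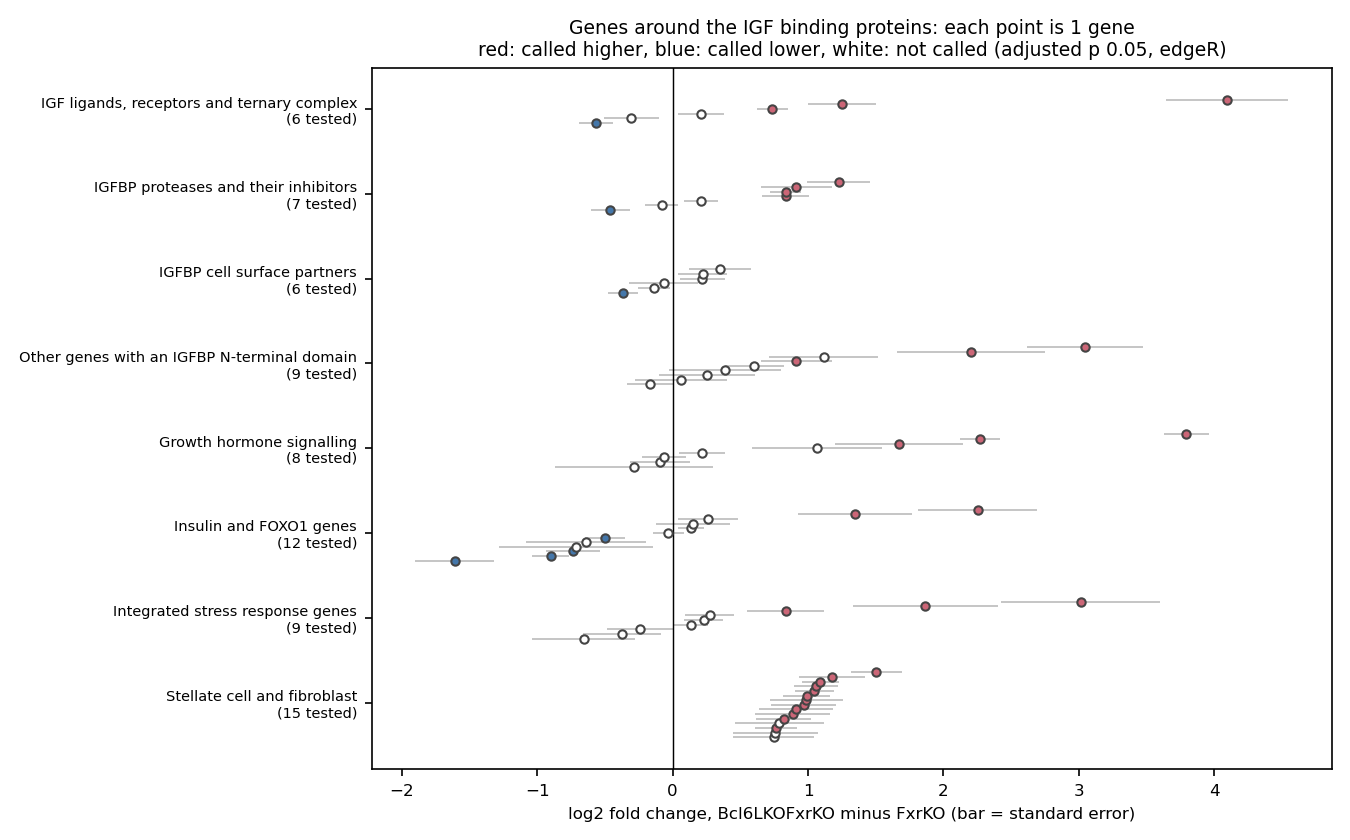
Log2 fold change, *Bcl6LKOFxrKO* minus *FxrKO* (x axis, bars are standard errors), of each tested gene in the 7 pathway lists and the stellate cell and fibroblast list, 1 point a gene; red was called higher, blue lower, white not called. Ligand and receptor genes spread from -0.57 for *Insr* to the value of *Igf2* at the right edge, whereas all 15 tested stellate cell and fibroblast genes lie above 0.

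Markers of stellate cells and fibroblasts, cells that can express several IGF binding proteins, were higher in *Bcl6LKOFxrKO* livers. Of 15 tested, 12 were called higher and 0 lower by edgeR (0 lower also at an unadjusted p under 0.05, by DESeq2 and by limma voom), the median log2 fold change was 0.97, and their summed level was 294 to 390 CPM in *FxrKO* livers and 609 to 726 CPM in *Bcl6LKOFxrKO* livers. The 3 not called were *Lrat*, *Col1a1* and *Acta2* (adjusted p = 0.0969, 0.100 and 0.0787, edgeR), and each overlapped between genotypes. Of 10 sinusoidal endothelial markers 1 was called higher (*Stab2*), with sums of 221 to 298 and 282 to 364 CPM, and 2 were called with a minimum of 10 counts in every liver and without *FxrKO* liver 4 or *Bcl6LKOFxrKO* liver 5 or 6. Of 10 Kupffer cell and macrophage markers 3 were called higher (*C1qa*, *C1qb* and *Lyz2*), with sums of 481 to 668 and 676 to 1129 CPM, and 1 was called without *FxrKO* liver 3. Of 6 tested cholangiocyte markers 2 were called higher (*Krt19* and *Spp1*), with sums of 119 to 185 and 168 to 232 CPM. The cholangiocyte count was 1 with a minimum of 10 counts in every liver and without *FxrKO* liver 2, 3 or 4 or *Bcl6LKOFxrKO* liver 5, 6 or 8. None of this list was called lower. *Sox9* fitted lower (log2 fold change -0.81, adjusted p = 0.0773, edgeR), the 1 cholangiocyte marker lower at an unadjusted p under 0.05. Mesothelial markers summed to 1.25 to 5.70 and 2.18 to 4.81 CPM, with 1 tested and not called. Of the 5 hepatocyte markers analysed here, *Alb* was called higher, *Ttr* lower and 3 were not called, and 2 were called lower with total counts alone, by DESeq2, and without *FxrKO* liver 1 or *Bcl6LKOFxrKO* liver 6. No marker of these 6 lists was at 0 in every liver. The part of these cell types in the higher *Igfbp2*, *Igfbp3*, *Igfbp4* and *Igfbp7* levels was not tested.

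The genes whose pattern over the 8 livers was nearest to each tested member were found among 9080 genes by the root mean square difference between centred log2 CPM. The profiles were centred over all 8 livers, so the difference between genotypes is part of each pattern. The difference was smallest for *Igfbp4*, with *Sdf4*, a calcium-binding protein of the Golgi (0.05), and *Capzb*, an actin capping subunit (0.06). *Igfbp7* was nearest to *Timp2*, a metalloprotease inhibitor (0.09), and *AI464131* (0.11). *Igfbp3* was nearest to *Fgfr2*, a fibroblast growth factor receptor (0.19), and *Il10ra*, a subunit of the interleukin 10 receptor (0.19). *Igfbp2* was nearest to *Nagk*, an amino sugar kinase (0.22), and *Rcn3*, a calcium-binding protein of the endoplasmic reticulum (0.23). *Igfbp5* was nearest to *Ifrd1* and *Nmrk1* (0.24 each). The log2 fold changes of the nearest genes were 0.42 for *Sdf4*, 0.79 for *Timp2*, 0.87 for *Fgfr2*, 1.06 for *Nagk* and 0.28 for *Ifrd1*.

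The genes nearest to *Igfbp1* were *Gbp8*, an interferon-induced GTPase (0.50), and *Irs2* (0.51). This difference grows with a member's own variation. As a ratio to the root mean square of the member's own profile, the nearest gene was at 0.20 for *Igfbp4*, 0.22 for *Igfbp7*, 0.38 for *Igfbp2*, 0.39 for *Igfbp5*, 0.40 for *Igfbp3* and 0.44 for *Igfbp1*. *Irs2* was at 5.62, 9.50, 6.45 and 2.93 CPM in *FxrKO* livers and at 18.9, 8.49, 24.5 and 9.44 CPM in *Bcl6LKOFxrKO* livers. *Irs2* is shown because it was picked for its likeness to *Igfbp1*. Both were highest in liver 2 among *FxrKO* livers and lowest in liver 6 among *Bcl6LKOFxrKO* livers, whereas *Igfbp1* was lowest in *FxrKO* liver 1 and highest in *Bcl6LKOFxrKO* liver 5, and *Irs2* was lowest in *FxrKO* liver 4 and highest in *Bcl6LKOFxrKO* liver 7.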

How the data were processed

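Liver RNA from 4 *FxrKO* and 4 *Bcl6LKOFxrKO* males was sequenced after stranded mRNA library preparation. Single-end reads of 100 bases were aligned by the authors to mm10 (STAR 2.5.2), and those with more than 1 location or over 4 mismatches were dropped. The deposited values are raw counts per gene, made with HOMER 4.10 from exonic reads of 1 transcript per gene. No strand option is stated for the counting, which leaves overlapping and antisense genes uncertain. The deposited table also gives each transcript's length.

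Groups come from the sample titles, and the liver numbers 1 to 8 are the library numbers in the labels. The titles also carry mouse numbers, and several *FxrKO* and *Bcl6LKOFxrKO* mice have consecutive ones; the labels do not say that these mice were littermates or otherwise paired. Within each genotype, all pairs of livers differed by more than sampling noise (chi-square per degree of freedom from 10.03 to 45.8). The fold changes came from edgeR 4.0.16 (R 4.3.3): filterByExpr, TMM factors, robust quasi-likelihood fits, with p-values adjusted over 12340 genes by Benjamini-Hochberg. Log2 CPM used a prior count of 2. Two-sided exact permutation tests ran over 70 orderings of the 8 livers, and the smallest p they can give is 0.0286. With 7586241 to 11839503 counts per liver, genes of a few counts are imprecise. The fits were first tested on simulated data.

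The members and the gene lists were chosen with earlier results of these data known. The genes named are the 7 members, up to 3 called genes in each direction from each pathway list, *Igf1*, *Igf2*, *Igf1r*, *Igfals*, *Ghr*, *Pappa*, *Stc2*, *Foxo1*, *Pck1*, *Irs2*, *Atf4* and *Bcl6*, and for each tested member the 2 genes nearest in pattern among genes with a mean of at least 50 counts, leaving out symbols that begin with Gm or end in Rik. The others were named as examples of a list or as an overlapping gene. The alternatives were DESeq2 1.42.0, limma 3.58.1 voom with quality weights, total counts alone, RLE size factors, the 50 most counted genes left out before TMM, no filter, a minimum of 10 counts in all livers, and the omission of each liver in turn. For the shares, counts not divided by length were tried. Promoter windows came from RefSeq on GRCm38.p6, where all 7 members had a window set by the same start as the deposited transcript.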

Additional observations from a re-analysis of the deposited data

Results flagged for a closer look

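In each genotype, 1 liver was set against the other 3 by Dixon's ratio, the gap to the nearest of the others over the whole range (against its 95% critical value). Of 50 such comparisons, over the members, their shares, their sum and 10 named genes, 5 passed, where chance gives about 1 in 20. *Igfbp3* was lower in *FxrKO* liver 1 (14.99 CPM against 29.0 to 30.5 in the other 3, ratio 0.901). *Igfbp4* was higher in *Bcl6LKOFxrKO* liver 8 (3086 CPM against 2302 to 2374, ratio 0.907). *Igf1* was higher in *FxrKO* liver 3 (409 CPM against 263 to 286, ratio 0.842). *Foxo1* was higher in *FxrKO* liver 4 (55.0 CPM against 30.1 to 31.9, ratio 0.929). The share of *Igfbp5* in the summed level was higher in *Bcl6LKOFxrKO* liver 7 (0.166% against 0.0795% to 0.092%, ratio 0.856). Among these 50 comparisons, no liver was singled out more than 1 time. The other named genes were not compared in this way. Of these, *Adam9* and *Prlr* were lowest in *Bcl6LKOFxrKO* liver 8 (35.5 CPM against 55.8 to 56.9, and 1278 CPM against 1689 to 1721).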

How the results depend on the processing

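All 7 members kept their direction under every alternative that gave a value, and 92 of 103 values kept their side of the threshold. For *Igfbp6* these values are differences of mean log2 CPM with an exact permutation p, except the fits by DESeq2 and with no filter. With total counts alone, 2 members were called higher instead of 4, since *Igfbp3* (log2 fold change 0.46) and *Igfbp4* (0.30) were no longer called; that scaling moves the median of all genes by -0.16. DESeq2 called *Igfbp1* in addition (1.61). When each liver was left out, the log2 fold change ranged from 1.32 to 2.12 for *Igfbp1*, from 0.43 to 0.70 for *Igfbp3* and from 0.35 to 0.51 for *Igfbp4*, and between 3 and 4 members were called higher. None was called lower under any alternative. For these losses and gains the cause was not tested. Among the other named genes, *Atf4*, which was not called, turned from 0.14 to -0.024 with total counts alone. Of 399 values of 27 other named genes under alternatives, 35 lost their call and none gained one, and the number of called pathway genes stayed between 18 and 26 against 24. Of 390 counts per list and direction, 40 moved by more than 1.5 times, and those that bear on a stated count are given beside it. The members' shares moved by less than the spread between livers, also without division by length. No paired fit was made, since the labels name no pairs and the library numbers are not shared between genotypes. Depth limits *Igfbp6* and the low ligand and protease genes, and 4 livers per genotype limit every permutation p.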
